A study of Rattus norvegicus with 4 samples.

Results

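Hemoglobin transcripts were examined in RNA-seq data of rat hippocampus at the 3 genes that the deposited table lists under the symbols Hbb, Hba-a2 and LOC360504. Each had 1 listed transcript, so the members were 3 of 830 listed transcripts and 3 of 474 listed genes. They were chosen by gene symbol among the listed transcripts, and a transcript was listed only if its DESeq p-value was under 0.05 and its fold change over 1.5 between the treatments. The members were thus selected on their read counts in the samples described here, and the difference between fluoxetine and vehicle is given as a description, with no p-value. The study asked which genes still differed in the hippocampus long after chronic exposure to fluoxetine, an antidepressant that blocks the reuptake of serotonin. The 2 fluoxetine samples came from male Wistar rats given 12 mg/kg per day by oral gavage from postnatal day (PND) 67 to 88. The 2 vehicle samples came from male Wistar rats given 1% methylcellulose by the same route and over the same days. Tissue was collected at PND 128, which is 40 days past the end of dosing, and each sample pooled tissue punched from the frozen hippocampus of 2 rats. No step that washes blood out of the brain is described in the sources used here, and no label marks a batch.

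Hemoglobin, the oxygen carrier of red blood cells, is built from alpha-globin and beta-globin chains, which are made in balanced amounts in red cell precursors. Mature mammalian red cells have no nucleus, but young circulating red cells (reticulocytes) still hold globin mRNA, so that tissue taken with its blood carries some of it. Globin transcripts have also been described in some neurons and glial cells of the rodent brain. In pooled bulk tissue, fewer cells of a type and less RNA per cell cannot be told apart.

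Hbb (gene ID 24440) encodes the adult beta-globin chain, and Hba-a2 (gene ID 25632) and LOC360504 (gene ID 360504) encode adult alpha-globin chains. In build rn4, on which the reads were counted, the Hbb transcript lies on chromosome 1 from 161618782 to 161620193, with 620 exonic bases. Hba-a2 lies on chromosome 10 from 15584360 to 15585215, with 556 exonic bases. LOC360504 lies on the same chromosome from 15570930 to 15571773, with 544 exonic bases, and 12586 bases separate the alpha-globin genes. All 3 transcripts have 3 exons and lie on the minus strand. The symbols have changed since the deposit. RefSeq now calls gene ID 25632 Hba-a1 and gene ID 360504 Hba-a2, and the older symbols of the table are kept here. In the current RefSeq gene table, the beta-globin cluster holds 8 protein-coding globin genes and the alpha-globin cluster holds 5, of which 1 and 2 are in the deposited table and the others were not analysed here. Only reads with a single genomic position were kept by the authors, so reads from stretches that near-identical globin copies share are missing, and the split of reads between copies is uncertain.

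The promoters are shown to describe the 3 genes and how alike the alpha-globin copies are. They are the 250 bases before the annotated start in RefSeq (build GRCr8), Hbb at chr1:167663722-167663971, Hba-a2 at chr10:15842581-15842830 and LOC360504 at chr10:15829139-15829388, all on the minus strand and written 5′ to 3′ in the direction of the gene. Capitals mark matches on either strand to CCAAT, the letters of the CCAAT box, to CACCC, found in sites of erythroid Krüppel-like factors, to GATAA, found in sites of GATA factors, and to ATAAA, found in TATA boxes.
Hbb: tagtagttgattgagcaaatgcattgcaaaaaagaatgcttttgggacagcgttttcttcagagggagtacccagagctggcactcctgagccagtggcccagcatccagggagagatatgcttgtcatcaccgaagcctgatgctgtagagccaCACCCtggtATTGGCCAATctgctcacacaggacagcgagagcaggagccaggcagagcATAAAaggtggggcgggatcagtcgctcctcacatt
Hba-a2: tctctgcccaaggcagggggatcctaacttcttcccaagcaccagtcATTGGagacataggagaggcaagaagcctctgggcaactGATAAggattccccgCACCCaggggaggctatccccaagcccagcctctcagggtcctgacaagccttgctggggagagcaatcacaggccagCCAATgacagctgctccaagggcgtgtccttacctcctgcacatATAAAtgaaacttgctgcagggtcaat
LOC360504: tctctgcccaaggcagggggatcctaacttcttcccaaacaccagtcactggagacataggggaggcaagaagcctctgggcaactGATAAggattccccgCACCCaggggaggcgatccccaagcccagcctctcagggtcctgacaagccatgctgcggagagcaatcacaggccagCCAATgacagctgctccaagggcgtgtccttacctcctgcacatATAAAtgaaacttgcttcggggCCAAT
The Hba-a2 and LOC360504 promoters were identical at 241 of 250 positions (96.4%). The CCAAT letters matched in all 3 promoters, as did the letters of CACCC and of ATAAA. The GATAA letters matched in Hba-a2 and LOC360504 and not in this window of Hbb. In Hbb a CCAAT match on the opposite strand directly adjoins one on the gene's own strand, and none of the marked matches overlap. Of 33469 rat promoters with the same 250-base window, the share with a match was 34.0% for CCAAT, 49.2% for CACCC, 23.5% for GATAA and 39.3% for ATAAA. These matches are a description of the letters and were not tested as binding sites.

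The libraries held between 12512599 and 14080348 reads, totals recovered from the deposited normalized values, and vehicle sample 2 was the smallest. The listed transcripts took 1.03 to 1.17% of each library. Levels of the hemoglobin genes are given as RPM, reads scaled to a library total of 1000000, unless another unit is named. Apart from the shares of globin reads, which are not corrected for transcript length, levels of different genes are compared only through normalized expression (NE). NE is the authors' read density per transcript length and data set size.

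Beta-globin reads were high in a single library. Hbb had 303 and 262 reads in fluoxetine samples 1 and 2, and 315 and 886 reads in vehicle samples 1 and 2. In RPM this was 21.5, 19.4, 22.5 and 70.8 in the same order. Vehicle sample 2 stood 3.35 times above the mean of the other 3 samples, which lay between 19.4 and 22.5. The group means were 20.4 ± 1.51 RPM for fluoxetine and 46.6 ± 34.2 for vehicle (SD, n = 2 samples per group), and they lay 26.2 RPM apart, less than the vehicle SD.

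The alpha-globin genes had the same pattern. Hba-a2 had 321 and 267 reads in fluoxetine samples 1 and 2, and 336 and 850 reads in vehicle samples 1 and 2. On the RPM scale the values were 22.8, 19.8, 24.0 and 67.9. Vehicle sample 2 again stood far above the rest, at 3.06 times their mean, and vehicle sample 1 lay just above fluoxetine sample 1. The group means were 21.3 ± 2.15 for fluoxetine and 46.0 ± 31.1 for vehicle (SD, n = 2). LOC360504 had 181 and 117 reads in the fluoxetine samples, and 133 and 442 in the vehicle samples. These reads correspond to RPM values of 12.9, 8.66, 9.49 and 35.3. Here vehicle sample 1 lay between the fluoxetine samples, so the groups overlapped, and vehicle sample 2 stood 3.42 times above the mean of the other 3. The group means were 10.8 ± 2.97 for fluoxetine and 22.4 ± 18.3 for vehicle (SD, n = 2). The groups lay 24.7 RPM apart for Hba-a2 and 11.7 RPM apart for LOC360504, in both cases less than the vehicle SD.

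**Figure D1:**
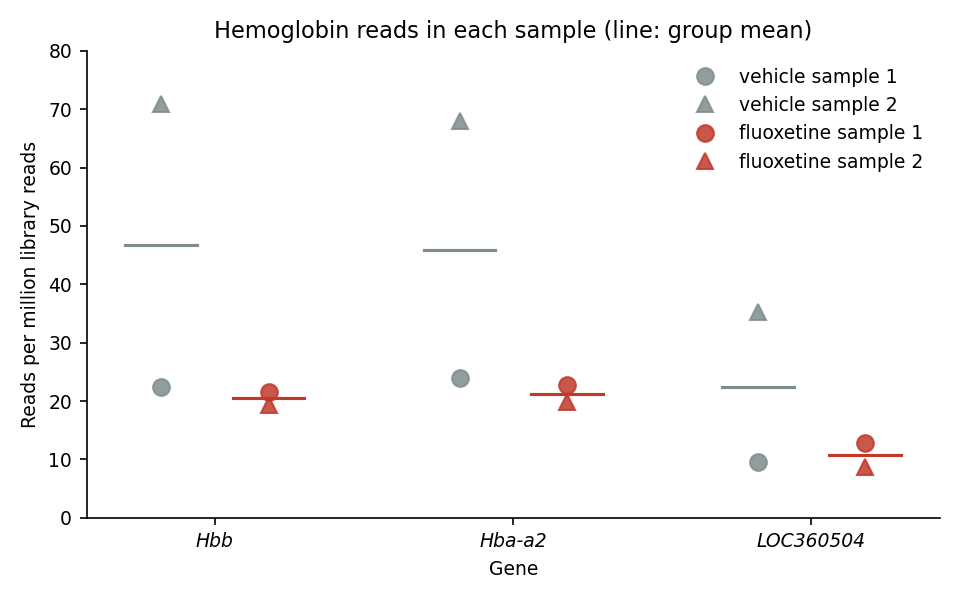
RPM (vertical axis) of Hbb, Hba-a2 and LOC360504 (horizontal axis). Each point is a library, grey for vehicle and red for fluoxetine, a circle for sample 1 or a triangle for sample 2, and short lines mark the group means. Vehicle sample 2 lies at 70.8, 67.9 and 35.3, while the other 3 samples lie between 19.4 and 22.5, 19.8 and 24.0, and 8.66 and 12.9.

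Summed over the 3 genes, hemoglobin reached 57.2 RPM in fluoxetine sample 1 (95% Clopper-Pearson interval 53.3 to 61.3), 47.8 in fluoxetine sample 2 (44.2 to 51.6), 56.0 in vehicle sample 1 (52.1 to 60.0) and 174 in vehicle sample 2 (167 to 181). These intervals cover counting error only and leave out variation between pools. The reads carry no molecular identifiers, so copies of a molecule count as separate reads and the counting intervals given here may be too narrow. Vehicle sample 1 lay between the fluoxetine samples, and the interval of vehicle sample 2 lay apart from the other 3. The group means were 52.5 ± 6.62 for fluoxetine and 115 ± 83.5 for vehicle (SD, n = 2).

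In edgeR's quasi-likelihood fit over all 830 transcripts, which also estimates the spread from the other transcripts, the log2 fold change of fluoxetine over vehicle was -1.26 for Hbb (standard error 0.65), -1.18 for Hba-a2 (standard error 0.61) and -1.11 for LOC360504 (standard error 0.73). These values correspond to vehicle means 2.39, 2.27 and 2.15 times the fluoxetine means. All 830 transcripts had been selected for a treatment difference in these samples. The scaling between samples (TMM) and the spread rest on them, so the standard errors may be too small. Scaled to the library totals instead, the log2 fold changes were -1.19 for Hbb, -1.11 for Hba-a2 and -1.06 for LOC360504. The median over the 3 genes was -1.18, beside 0.49 over all 830 listed transcripts, of which 48.0% had the lower mean in fluoxetine. The median over all listed transcripts was -0.55 without fluoxetine sample 1 and -0.38 without fluoxetine sample 2, so it gives no stable background.

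The fold changes depended on vehicle sample 2. Without it, the log2 fold change was -0.28 for Hbb (standard error 1.02), -0.32 for Hba-a2 (standard error 1.03) and 0.02 for LOC360504 (standard error 0.97), each smaller than its standard error. The summed RPM then had a log2 ratio of -0.09, against -1.13 with all samples. Without vehicle sample 1 the log2 fold changes grew in size to -1.81, -1.70 and -1.72. Leaving out a fluoxetine sample gave values from -1.55 to -0.90.

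**Figure D2:**
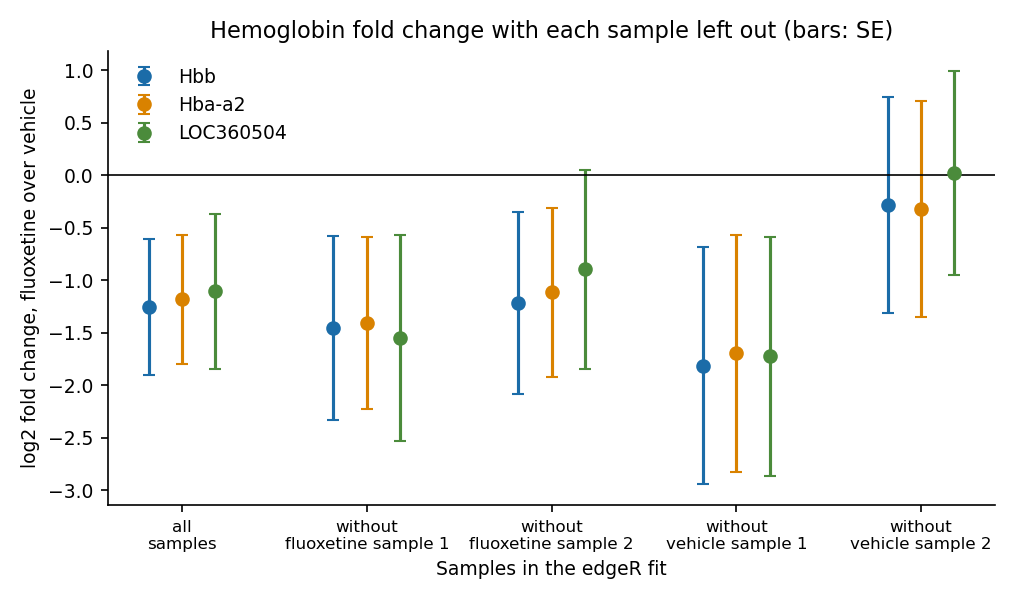
The log2 fold change of fluoxetine over vehicle (vertical axis) of the 3 hemoglobin genes from edgeR with all samples and with each sample left out (horizontal axis), with bars for the standard error. The points lie from -1.26 to -1.11 with all samples and from -0.32 to 0.02 without vehicle sample 2.

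Outside vehicle sample 2, the order of the samples differed between the genes. At TMM-normalized levels, the vehicle samples were both above the fluoxetine samples for Hbb and Hba-a2, 2 of the 3 genes. This order held in 41.1% of the 830 listed transcripts and the opposite order, which 0 of the 3 genes had, in 30.6%. All of these transcripts had passed the authors' limits on the treatment difference. In TMM-normalized reads, vehicle sample 1 had 337.5 for Hbb against 300.3 in fluoxetine sample 1 and 233.0 in fluoxetine sample 2, and 360.1 for Hba-a2 against 318.1 and 237.4. For Hbb, the ratio of vehicle sample 1 over fluoxetine sample 1 was 1.04 (95% counting interval 0.889 to 1.23) at the library totals. For Hba-a2 this ratio was 1.05 (0.900 to 1.23), and for LOC360504 it was 0.738 (0.586 to 0.929), in the other direction. Over fluoxetine sample 2, vehicle sample 1 had ratios of 1.16 for Hbb (0.981 to 1.37), 1.21 for Hba-a2 (1.03 to 1.43) and 1.10 for LOC360504 (0.849 to 1.42). At the library totals, vehicle sample 1 was thus within counting error of fluoxetine sample 1 for Hbb and Hba-a2, while its excess over fluoxetine sample 2 for Hba-a2 and its deficit to fluoxetine sample 1 for LOC360504 exceeded that error.

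Within the vehicle group the pools differed more than any vehicle 1 and fluoxetine pair. The ratio of vehicle sample 2 over vehicle sample 1 was 3.15 for Hbb (95% counting interval 2.77 to 3.59), 2.83 for Hba-a2 (2.49 to 3.22) and 3.72 for LOC360504 (3.06 to 4.55). Within the fluoxetine group the ratio of sample 1 over sample 2 was 1.11 for Hbb (0.938 to 1.31), 1.15 for Hba-a2 (0.978 to 1.36) and 1.48 for LOC360504 (1.17 to 1.89). Among the 291 listed transcripts with a mean of at least 50 normalized reads, 7 had a larger log2 ratio of vehicle sample 2 over vehicle sample 1 than Hbb at 1.47, 11 had a larger one than Hba-a2 at 1.32, and 5 had a larger one than LOC360504 at 1.71, all at the TMM scaling. Of those 5, 4 were transcripts of 1 gene, and the counts for Hbb and Hba-a2 include other hemoglobin genes. Counted in either direction, 24 transcripts differed between the vehicle samples by more than Hbb, 32 by more than Hba-a2 and 16 by more than LOC360504. The median size of this log2 ratio, in either direction, was 0.50 over the 291 transcripts, and that of the fluoxetine pair was 0.86. In all 3 hemoglobin genes vehicle sample 2 had at least 2 times the level of every other sample, a limit chosen after the values were seen. This was so in 9.28% of the 830 transcripts and in 4.12% of the 291, or 12 transcripts, the 3 hemoglobin transcripts included. Several of the 12 share a gene, so they stand for fewer than 12 genes.

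**Figure D3:**
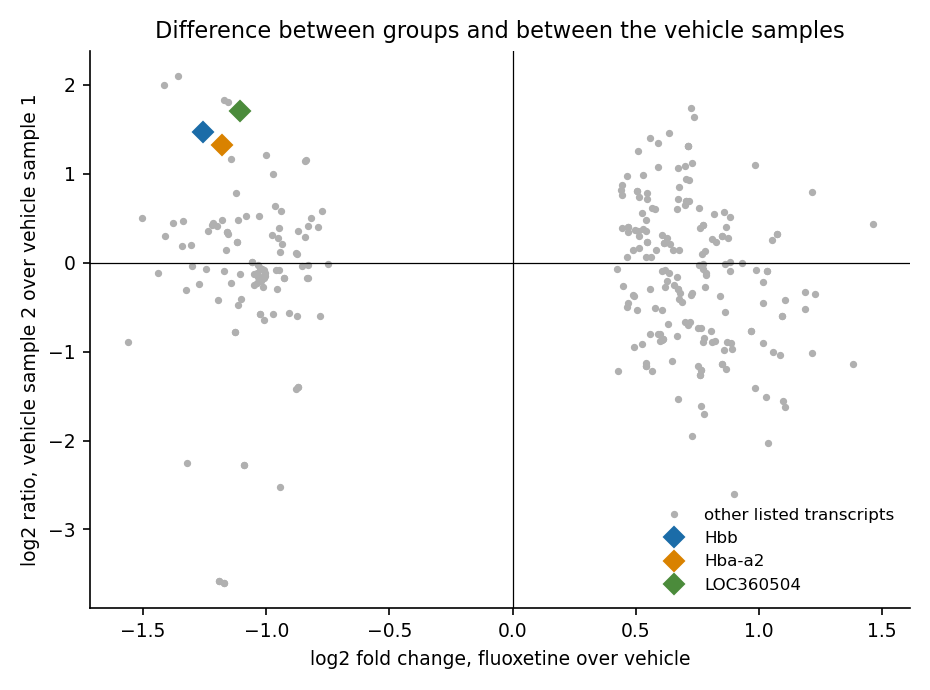
The log2 ratio of vehicle sample 2 over vehicle sample 1 (vertical axis) against the log2 fold change of fluoxetine over vehicle (horizontal axis) for 291 listed transcripts with a mean of at least 50 normalized reads. Both axes use the vehicle samples, and the empty band around a fold change of 0 comes from the authors' selection. Hbb, Hba-a2 and LOC360504 (diamonds) lie at 1.47, 1.32 and 1.71 on the vertical axis, toward its upper end.

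The proportions of the chains were computed from the same reads that selected the members, since each gene was listed for its own treatment difference, so they are given as a description with no test. Alpha-globin (Hba-a2 and LOC360504) made up 502 of 805 hemoglobin reads in fluoxetine sample 1, or 62.4% (95% Clopper-Pearson interval 58.9 to 65.7%), and 384 of 646 in fluoxetine sample 2, or 59.4% (55.5 to 63.3%). It made up 469 of 784 in vehicle sample 1, or 59.8% (56.3 to 63.3%), and 1292 of 2178 in vehicle sample 2, or 59.3% (57.2 to 61.4%). All 4 intervals overlapped, although vehicle sample 2 held 3.24 times the summed level of the mean of the other samples. The share was 60.9 ± 2.06% in fluoxetine and 59.6 ± 0.354% in vehicle (SD, n = 2). The difference of 1.33 percentage points was less than the fluoxetine SD.

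The split between the alpha-globin genes had a wider range. LOC360504 made up 36.1% of alpha-globin reads in fluoxetine sample 1 (95% Clopper-Pearson interval 31.8 to 40.4%) and 30.5% in fluoxetine sample 2 (25.9 to 35.3%). It made up 28.4% in vehicle sample 1 (24.3 to 32.7%) and 34.2% in vehicle sample 2 (31.6 to 36.9%). The intervals all overlapped here as well, and each rests on fewer reads than that of the alpha-globin share. The groups overlapped, with means of 33.3 ± 3.95% in fluoxetine and 31.3 ± 4.14% in vehicle (SD, n = 2). By NE, the LOC360504 share lay between 28.8 and 36.6% over the samples.

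**Figure D4:**
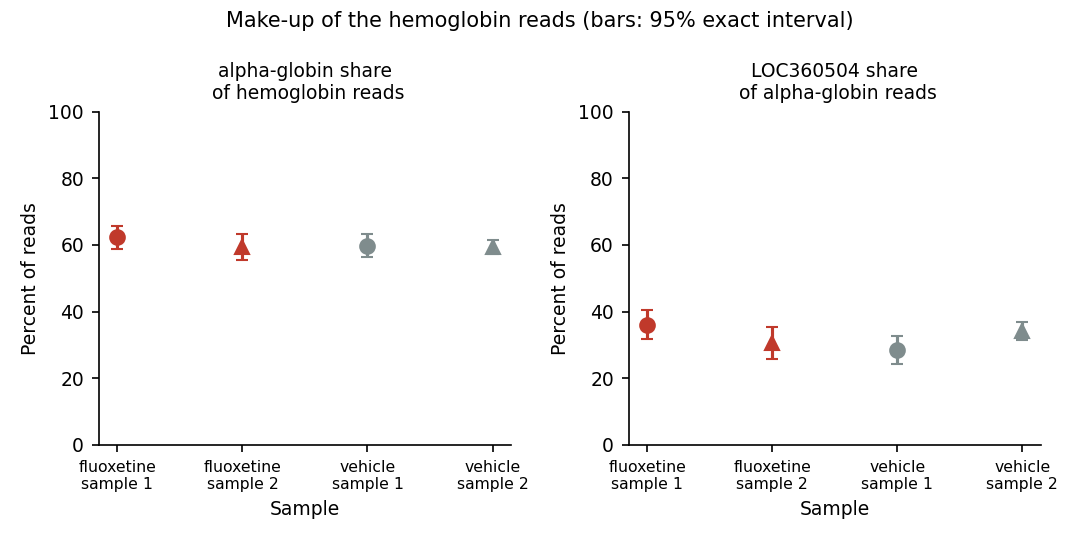
Share of alpha-globin in all hemoglobin reads (left) and share of LOC360504 in alpha-globin reads (right), in percent of reads (vertical axes) for each sample (horizontal axes), with bars for the 95% exact interval. The left share stays between 59.3 and 62.4%, and the right share lies between 28.4 and 36.1%.

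Per transcript length, Hba-a2 had the highest density in every sample. Its NE was 0.410 in fluoxetine sample 1, 0.355 in fluoxetine sample 2, 0.431 in vehicle sample 1 and 1.22 in vehicle sample 2. The NE of Hbb was 0.347, 0.313, 0.363 and 1.14 in that order, so that Hba-a2 stood 1.07 to 1.19 times above it. The NE of LOC360504 was 0.236, 0.159, 0.174 and 0.649, which is 0.405 to 0.576 times that of Hba-a2. The NE of Hba-a2 and LOC360504 together was 1.64 to 1.86 times that of Hbb. These ratios cover uniquely placed reads of 3 globin genes and leave out the other copies in both clusters, so they do not measure the balance of the chains as a whole.

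The genes with the most similar pattern over the 4 samples were found by the root mean square difference of centred log2 normalized reads from the summed hemoglobin reads. This was computed for 154 other genes with a mean of at least 50 normalized reads. It was 0.05 for Hbb and Hba-a2 and 0.16 for LOC360504, which form the sum themselves, and the median of the other genes was 1.03. The nearest were RGD1306926 at 0.13, the chemokine gene Cxcl12 at 0.25, Atp2b4, which encodes a calcium pump of the plasma membrane, at 0.34, RGD1309873 at 0.34 and Bmp3, a bone morphogenetic protein gene, at 0.39. RGD1306926 had 46 and 32 reads in the fluoxetine samples, and 47 and 107 in the vehicle samples. Cxcl12 had 394 and 428 reads in the fluoxetine samples, and 403 and 899 in the vehicle samples. In all 5 genes vehicle sample 2 was the highest, at 2.01 to 2.73 times the mean of the other samples, which is less than the 2.95 to 3.30 times of the hemoglobin genes on the same TMM scale. The transcripts of RGD1306926 and RGD1309873 carry mouse and pig Ensembl identifiers, so their reads were counted over models from other species. This likeness rests on 4 samples and is a description.

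**Figure D5:**
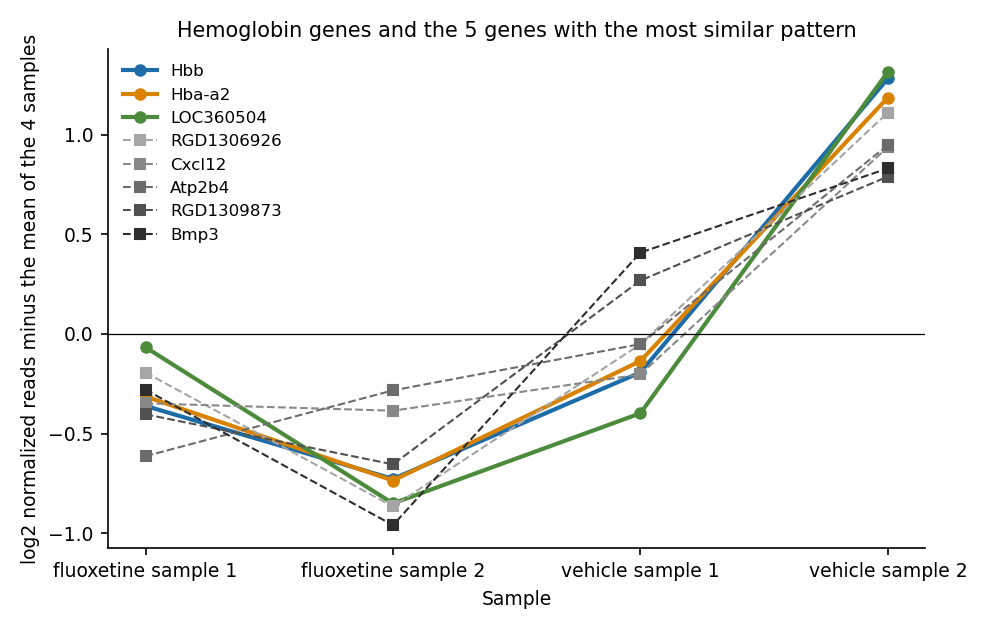
Log2 normalized reads minus the mean of the 4 samples (vertical axis) in each sample (horizontal axis) for the 3 hemoglobin genes (solid lines) and the 5 other genes with the most similar pattern (dashed lines). All 8 genes are highest in vehicle sample 2, where the hemoglobin genes lie between 1.19 and 1.31.

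The deposited table holds 474 genes, all of which passed the authors' limits on the treatment difference, so a gene outside it may be expressed at any level. Of 22 red cell globin symbols, the 3 hemoglobin genes were the listed ones, and 0 of 4 globins of other cells (neuroglobin, cytoglobin, myoglobin and androglobin) were. Of 28 genes of red cells and reticulocytes, 1 was listed. This was Epb42, a protein of the red cell membrane skeleton, which had 9 and 10 reads in fluoxetine samples 1 and 2, and 1 read in each vehicle sample. Epb42 was thus not high in vehicle sample 2, but these few reads come from 1 of its 2 listed transcripts. That transcript has no rat RefSeq or rat Ensembl identifier, so its reads may not cover the rat transcript. The log2 fold change, 2.92 (standard error 0.87), was opposite in sign to that of the hemoglobin genes and rests on those few reads. Defining reticulocyte genes such as Alas2, the first enzyme of heme synthesis in red cell precursors, and Slc4a1, the anion exchanger of the red cell membrane, were among the 27 genes of this list not analysed here. The same holds for all of the 11 heme synthesis genes, the 10 erythroid transcription factor and receptor genes and the 15 genes of hemoglobin, heme and iron handling. Whether blood in the tissue had a part in the hemoglobin level of vehicle sample 2 was not tested.

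Markers of other cells that a punch can hold were looked up in the same way. None of the 10 platelet, 21 blood leukocyte, 22 endothelial and 11 microglia genes was listed, nor any of 14 genes of the response to low oxygen. Of 14 mural cell genes, Cspg4, a proteoglycan of pericytes and oligodendrocyte precursors, had 4 and 1 reads in fluoxetine and 12 and 11 in vehicle. Of 12 meningeal fibroblast genes, Dcn, the matrix proteoglycan decorin, had 75 and 77 reads in fluoxetine and 50 and 28 in vehicle, and was lowest in vehicle sample 2. Of 10 choroid plexus genes, Kl had 6 and 2 reads in fluoxetine and 0 in both vehicle samples, and Clic6 had 0 in both fluoxetine samples and 1 and 5 in vehicle. Of 9 genes of nitric oxide signalling, Nos1, the neuronal nitric oxide synthase, had 10 and 12 reads in fluoxetine and 42 and 25 in vehicle. Of 16 hippocampal neuron genes, Wfs1, a marker of CA1 pyramidal cells, was listed, and the other markers of the labelled tissue were not analysed here. Wfs1 had 287 and 655 RPM in fluoxetine samples 1 and 2, and 251 and 363 RPM in vehicle samples 1 and 2. Among Cspg4, Dcn, Kl, Clic6, Nos1 and Wfs1, only Clic6 was highest in vehicle sample 2 with at least 2 times the reads of every other sample, and it rested on 6 reads. The transcripts of Cspg4 and Nos1 carry pig and mouse Ensembl identifiers, and that of Wfs1 a mouse RefSeq one. That of Kl has no rat RefSeq or rat Ensembl identifier. The reads of these genes may thus not cover the rat transcripts.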

How the data were processed

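PolyA RNA had been sequenced as single reads of 36 bp. The authors used the Illumina Analysis Pipeline with rn4, allowed 1 mismatch and discarded reads with several positions. Read counts over the exons of a transcript, from Genomatix software, were deposited without normalization. NE, also deposited, was treated as a signal: the authors scaled reads to transcript length and to data set size. No source used here states strand-specific counting. The table lists 830 transcripts selected at p under 0.05 and fold change over 1.5, and its columns of group means, fold changes and p-values, which hold the authors' comparison, were not used.

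Columns were matched to samples by treatment and number. Library totals, behind RPM, were the median of reads over length and NE, for transcripts with at least 200 reads. Log2 fold changes came from edgeR 4.0.16 (R 4.3.3, TMM over all 830 transcripts, treatment as the only term, no filter), with DESeq2 1.42.0 as an alternative. Each edgeR standard error was the size of the log2 fold change over the square root of its quasi-likelihood F statistic. Intervals of shares came from scipy 1.17.1. A value of 0.5 normalized reads was added before logs in the comparison of patterns. Samples of a group differed beyond counting noise, so they were kept as separate replicates, and no source states whether pools shared a litter. The members, the 16 gene lists and the comparisons were chosen with earlier results of these data known. Named are the 3 members, every listed gene of the 16 lists at its transcript with the most reads, and the 5 genes of most similar pattern. Alternatives were other scalings, a filter on low counts, NE, a replicate block and leaving out each sample.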

Additional observations from a re-analysis of the deposited data

How the results depend on the processing

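The hemoglobin fold changes kept their direction under DESeq2, the other scalings, the filter of at least 10 reads in at least 2 samples and the deposited NE. With each sample left out, the log2 fold change ranged from -1.81 to -0.28 for Hbb, from -1.70 to -0.32 for Hba-a2 and from -1.72 to 0.02 for LOC360504, and the summed RPM had log2 ratios from -1.73 to -0.09. In each case the value nearest to 0 is that without vehicle sample 2. With 1 sample left in a group, the fit assumes that it varies like the others. The difference in alpha-globin share, 1.33 percentage points, ranged from -0.13 to 2.79 with each sample left out, and was negative without fluoxetine sample 1. The log2 ratio of summed hemoglobin within a group depended on the scaling. For vehicle sample 2 over sample 1 it was 1.46 by TMM and 1.64 by library totals or DESeq2 size factors, and for fluoxetine sample 1 over sample 2 it was 0.47 by TMM, 0.26 by library totals and 0.23 by DESeq2 size factors. With the filter, 531 transcripts remained. Of these, 191 had both fluoxetine samples below both vehicle samples and 176 had the opposite order. Without the filter, the counts were 341 and 254 of 830. Of the 5 genes of most similar pattern, 4 remained when the minimum mean was 20 normalized reads and 5 under the other scalings.

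Samples of the 2 groups share the numbers 1 and 2, but no source says that a number marks a pair. Deviations of same-numbered samples from their group means correlated at 0.66 across 265 transcripts, which are not independent. The hemoglobin sum ran the other way, higher in sample 1 in fluoxetine and in sample 2 in vehicle. With the replicate block the log2 fold changes were -1.09 for Hbb, -1.05 for Hba-a2 and -0.93 for LOC360504, the summed reads had a mean paired log2 ratio of -0.92, and the share difference was 1.33 percentage points. The pairs were unlike: the summed ratio of vehicle over fluoxetine was 0.979 for the samples numbered 1 and 3.64 for those numbered 2.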
